A study of Mus musculus with 18 samples.

Results

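The WAP-domain protein genes followed here are Wap, Wfdc18, Wfdc12, Wfdc2 and Slpi, which are 5 of the 31053 features counted in the series. They were chosen by name as members of the whey acidic protein family and were measured in mouse mammary cells by droplet single-cell RNA sequencing. Of the 18 libraries, 17 came from mammary glands and 1 from embryonic skin, and several mice went into each adult and pregnancy-cycle library. The C57BL/6 libraries were the E18.5 mammary rudiment and its adjacent skin, the postnatal day 5 gland, the gland before puberty (2.5 weeks), pubertal terminal end buds (TEB) and ducts (5 weeks) and the adult virgin gland (10 weeks). The E18.5 tissue was dissected under a Lgr5-GFP reporter and the pubertal tissue under an E-cadherin-GFP reporter. One adult library came from SWISS mice at 10 weeks. The other libraries came from FVB/NJ mice. The libraries named A10, P7 and D12 were adult virgins of 10 weeks, those named H and G were taken on day 12.5 of pregnancy, and F4 and B4 on day 18.5. F11 and D6 were taken 10 days into lactation, and a single post-involution library is labelled 3 weeks post birth, a time that the study's text counts from weaning. Blood and endothelial cells had been depleted by sorting, and the adults were not staged for estrus.

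WAP-domain proteins are small secreted proteins built on a four-disulfide core, and several of them inhibit proteases. Wap encodes whey acidic protein, a major whey protein of mouse milk. Slpi encodes secretory leukocyte protease inhibitor, which blocks neutrophil elastase and has antimicrobial activity. Wfdc2 encodes HE4, a secreted protein of many ducts and airways, Wfdc12 encodes a family member with antibacterial activity, and Wfdc18 encodes the protein known as extracellular proteinase inhibitor (Expi). The mammary ducts and alveoli hold an outer basal myoepithelial layer and inner luminal cells. The luminal cells divide into luminal progenitor (LP) cells, which give rise to the milk-secreting alveolar cells, and mature luminal (ML) cells, which carry hormone receptors. Prolactin drives milk gene transcription in alveolar cells through its receptor, JAK2 and STAT5.

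Wap and Wfdc18 lie on chromosome 11, at chr11:6635482-6638637 (minus strand) and chr11:83709015-83711348 (plus strand) of GRCm38. The other 3 lie on chromosome 2 within a cluster of 17 listed genes, WAP-domain genes apart from the Kunitz-type inhibitor gene Spint4, that spans 569.6 kb. Wfdc12 is at chr2:164189231-164190608 and Slpi at chr2:164354070-164389095, both on the minus strand, and Wfdc2 is at chr2:164562413-164568510 on the plus strand. The bases just upstream of the RefSeq start sites are shown for the 2 genes called higher in LP/alveolar cells at every replicated stage, Wap and Wfdc18, and for Wfdc12 and Slpi. These 2 and Wfdc2 were highest in ML cells during pregnancy, but at Wfdc2 a shorter stretch could be read. The Wap stretch is chr11:6638650-6638899, minus strand, and the Wfdc18 stretch is chr11:83708754-83709003, plus strand. The Wfdc12 stretch is chr2:164190609-164190808 and the Slpi stretch chr2:164356508-164356757, both minus strand. Each is read 5′ to 3′ along the gene's strand, ends at the base before the start site for 3 of them and 51 bases before it for Wfdc12, and leaves out annotated exons. Capitals mark the motif matches described next.
Wap: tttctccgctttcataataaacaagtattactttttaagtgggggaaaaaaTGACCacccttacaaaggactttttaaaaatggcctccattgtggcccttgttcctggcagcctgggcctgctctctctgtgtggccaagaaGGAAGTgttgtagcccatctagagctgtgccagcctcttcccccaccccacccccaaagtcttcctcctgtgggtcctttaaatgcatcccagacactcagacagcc
Wfdc18: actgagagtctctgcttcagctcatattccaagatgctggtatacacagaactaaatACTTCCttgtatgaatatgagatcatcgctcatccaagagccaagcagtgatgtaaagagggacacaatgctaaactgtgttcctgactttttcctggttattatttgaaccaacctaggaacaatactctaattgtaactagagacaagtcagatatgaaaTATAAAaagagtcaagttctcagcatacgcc
Wfdc12: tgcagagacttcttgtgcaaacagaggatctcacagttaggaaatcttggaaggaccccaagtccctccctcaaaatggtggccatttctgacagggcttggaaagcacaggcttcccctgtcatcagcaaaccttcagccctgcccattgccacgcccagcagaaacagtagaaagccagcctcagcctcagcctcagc
Slpi: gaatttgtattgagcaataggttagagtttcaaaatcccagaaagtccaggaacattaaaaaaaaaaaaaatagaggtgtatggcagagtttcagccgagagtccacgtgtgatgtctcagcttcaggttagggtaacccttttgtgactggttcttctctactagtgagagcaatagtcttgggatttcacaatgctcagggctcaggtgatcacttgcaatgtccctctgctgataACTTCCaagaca

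Both strands were searched for a STAT site (TTCNNNGAA), the receptor half-sites TGTTCT (glucocorticoid and progesterone) and GGTCA (estrogen), an ETS site (GGAAGT, the core that ELF5 and other ETS factors bind) and a TATA box (TATAAA). The ETS letters were present in Wap, 107 bases before the start, in Wfdc18 as ACTTCC, 193 bases before it, and in Slpi as ACTTCC, 12 bases before it. The GGTCA half-site was present once, as TGACC 199 bases before the Wap start, and TATAAA once, 31 bases before the Wfdc18 start. No window held the STAT letters or TGTTCT. Of 27025 mouse promoters read over 250 bases, 20% held the ETS letters, 34.9% GGTCA, 13% TATAAA, 16.2% TGTTCT and 7.18% the STAT letters. The Wfdc12 window had no match, and neither did the 104 bases that could be read at Wfdc2 (chr2:164562475-164562578, plus strand). A match of such short letters is a description of the sequence and not a binding site.

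Cells were assigned to basal, LP/alveolar or ML by marker genes that included none of the 5 genes and no milk protein gene. This gave 106938 cells in the 3 classes, out of 123574 kept mammary cells, from 163 to 7585 cells a class and from 616062 to 71935752 UMIs (unique molecular identifiers) a summed class. All 51 classes passed the marker check, with 11 to 13 of 13 basal, 7 to 15 of 16 LP and alveolar, and 5 to 12 of 13 ML markers raised. The classes were least distinct at E18.5, where up to 21.4% of the cells of a class lay near the cut, against at most 2.77% elsewhere. In that library 55.9% of the kept mammary cells were left without a class, and 5 of 13 ML markers were raised. The study itself reports no sign that the lineages had separated at that age. The smallest class was the ML class of lactation D6. In LP/alveolar cells the median share of LP markers was lower, and that of alveolar markers higher, in H and G than in A10, P7 and D12. The part of this change in the stage differences of that class was not tested. Library pairs shared at most 2.41% of the barcodes of the smaller library. Adult P7 has 14-base barcodes and the rest have 16-base ones, so no barcode of P7 can recur elsewhere, and the adult FVB/NJ libraries mix both kinds. With A10 or D12, at most 4 barcodes were shared by the adult SWISS, adult C57BL/6, pre-puberty or postnatal day 5 library. Levels are CPM, the UMIs of a gene per 1000000 UMIs of the summed class, and the library was the replicate. The study calls the libraries of a stage biological replicates, but its text gives no litters or days, and the p-values measure the spread between these libraries. Its methods name sets of samples handled at the same time. These are FVB/NJ adult with post-involution, the young C57BL/6 gland with adult C57BL/6 and SWISS, E18.5 mammary with skin, and TEB with duct. The pregnancy and lactation libraries are in no named set, and the part of handling in the differences between stages was not tested.

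**Figure D1:**
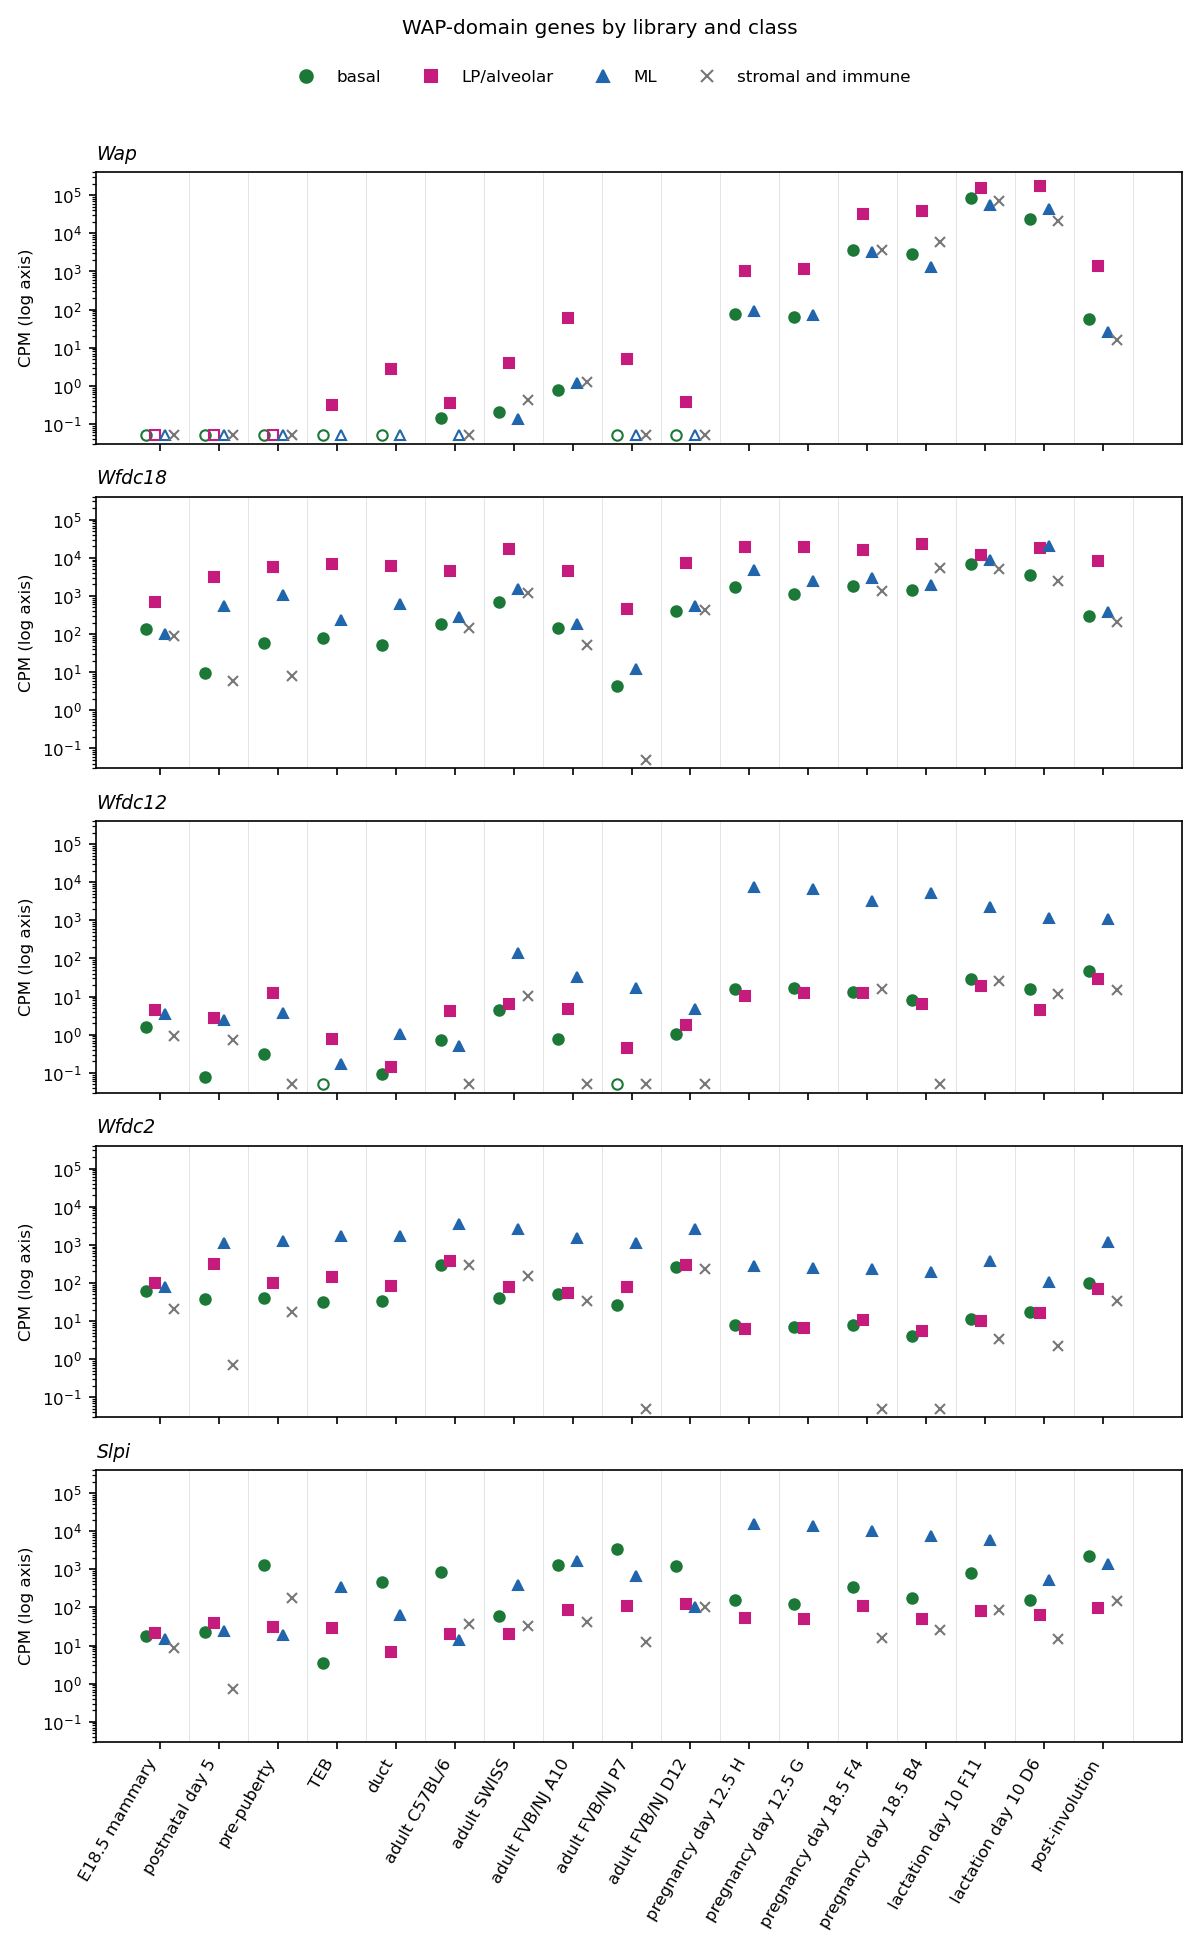
Level of each gene in CPM (log axis) in each class of the 17 mammary libraries, 1 symbol per summed class and no averaging. Symbols on the bottom line of a panel, hollow for the epithelial classes, stand for 0 UMIs, and classes under 20 cells are not drawn. Where detected, Wap was highest in LP/alveolar cells, as was Wfdc18 except in lactation D6 (20175 CPM in ML and 17811 in LP/alveolar cells), Wfdc2 was highest in ML cells after E18.5, and Wfdc12 and Slpi reached their highest levels in ML cells at pregnancy day 12.5.

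Wap and Wfdc18 were the LP/alveolar members and differed from basal and from ML cells at each of the 4 replicated stages. Classes of the same libraries were compared with edgeR's quasi-likelihood test with the library as a block, over 11 libraries (5 adult, 2 of each other stage) and 15526 genes, with Benjamini-Hochberg adjustment. Wap was higher in LP/alveolar than in basal cells by 5.62 ± 0.68 (log2 difference ± SE) in adults, 4.36 ± 0.55 at pregnancy day 12.5, 4.61 ± 0.55 at pregnancy day 18.5 and 4.21 ± 0.56 at lactation day 10, with edgeR adjusted p of at most 3.75e-06. The Wfdc18 differences were 5.09 ± 0.38, 4.12 ± 0.56, 4.70 ± 0.58 and 3.87 ± 0.57, with edgeR adjusted p of at most 1.25e-05. The size of the lactation differences depended on the settings. Over 20 alternatives they ran from 1.77 to 5.75 for Wap and from 1.46 to 5.23 for Wfdc18. The adult Wap difference ran from 3.97 to 6.56, and outside A10 adult Wap was low even in LP/alveolar cells. Basal Wap was 1.31% of the LP/alveolar level in A10, 5.27% in SWISS, 40.8% in C57BL/6 and 0 in P7 and D12. Without the library as a block, the Wap differences in pregnancy and lactation and the Wfdc18 differences at pregnancy day 12.5 and lactation did not pass (edgeR adjusted p 0.0710 to 0.140), with values of 3.81 to 4.55. Against ML cells the Wap difference lay between 4.34 and 5.45 and the Wfdc18 difference between 2.60 and 4.32, and without the block these passed in adults but not at the 3 later stages (edgeR adjusted p 0.0749 to 0.340). At lactation the Wap difference from ML cells ran from 1.78 to 4.45 over 20 alternatives. Without scaling beyond library totals, the lactation difference of Wfdc18 between LP/alveolar and ML cells was 0.08 (edgeR adjusted p = 0.922), and the difference at pregnancy day 12.5 did not pass without G (2.53, 0.0564).

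ML cells were the second lineage of the family. Wfdc12 was higher in ML than in basal cells by 4.17 ± 0.74 in adults, 8.53 ± 1.07 at pregnancy day 12.5, 8.42 ± 1.08 at pregnancy day 18.5 and 6.25 ± 1.02 at lactation day 10 (log2 ± SE, edgeR adjusted p of at most 0.000213). Wfdc2 was higher in ML than in basal cells by 4.70 ± 0.37, 4.89 ± 0.59, 4.92 ± 0.61 and 4.05 ± 0.64 at the same stages (edgeR adjusted p of at most 0.000151). Slpi did not keep to a class. In adults its ML level differed from basal by -1.38 ± 0.85 (edgeR adjusted p = 0.164), and its LP/alveolar level was lower than both. The difference was -4.13 ± 0.80 against basal (edgeR adjusted p = 0.000201) and -2.75 ± 0.82 against ML (0.00962). Without A10 the second was -2.03 (edgeR adjusted p = 0.0838). At pregnancy day 12.5 Slpi was 6.53 ± 1.37 higher in ML than in basal cells (edgeR adjusted p = 0.000959) and at pregnancy day 18.5 it was 4.92 ± 1.27 higher (0.00400, but 0.0558 without F4 and 0.0879 without B4). Its LP/alveolar minus ML difference was -7.63 ± 1.44 and -5.57 ± 1.31 at these stages (edgeR adjusted p = 0.000536 and 0.00205, the second 0.0635 without B4). At lactation the ML minus basal difference of 2.35 ± 1.14 did not pass (edgeR adjusted p = 0.187). Neither did the LP/alveolar minus ML difference of -1.88 ± 1.21 (0.306).

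Of the 60 differences between classes, 40 were called, 29 higher and 11 lower, and many genes differed between these classes. The share of all tested genes called was 48.2% for adult LP/alveolar against basal, 62.3% for adult ML against basal and 44.5% for adult LP/alveolar against ML. At pregnancy day 12.5 these shares were 46.4%, 31.0% and 26.6%, at pregnancy day 18.5 55.5%, 38.4% and 35.5%, and at lactation day 10 45.1%, 15.3% and 23.0%. For LP/alveolar against ML, all 5 genes were called in adults and at both pregnancy stages. The smaller differences were less firm. Wfdc18 in adults was 0.79 ± 0.33 higher in ML than in basal cells (edgeR adjusted p = 0.0412), a call that did not hold by DESeq2 (0.0597) or without A10, the C57BL/6 or the SWISS library (0.0579 to 0.0999). Wfdc12 was higher in ML than in LP/alveolar cells of adults, with an LP/alveolar minus ML difference of -2.24 ± 0.71 (edgeR adjusted p = 0.0137), and without the SWISS library this was -1.28 (0.152), without A10 -2.05 (0.0739). Wfdc2 was higher in LP/alveolar than in basal cells by 1.49 ± 0.55 at pregnancy day 18.5 (edgeR adjusted p = 0.0277). That call was lost under 3 other scalings (0.0526 to 0.494) and without F4 (0.142) or B4 (0.178). At lactation the Wfdc2 difference was 2.53 ± 0.61 (edgeR adjusted p = 0.00186), but -0.031 without scaling, and it did not pass without D6 (0.0668).

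**Figure D2:**
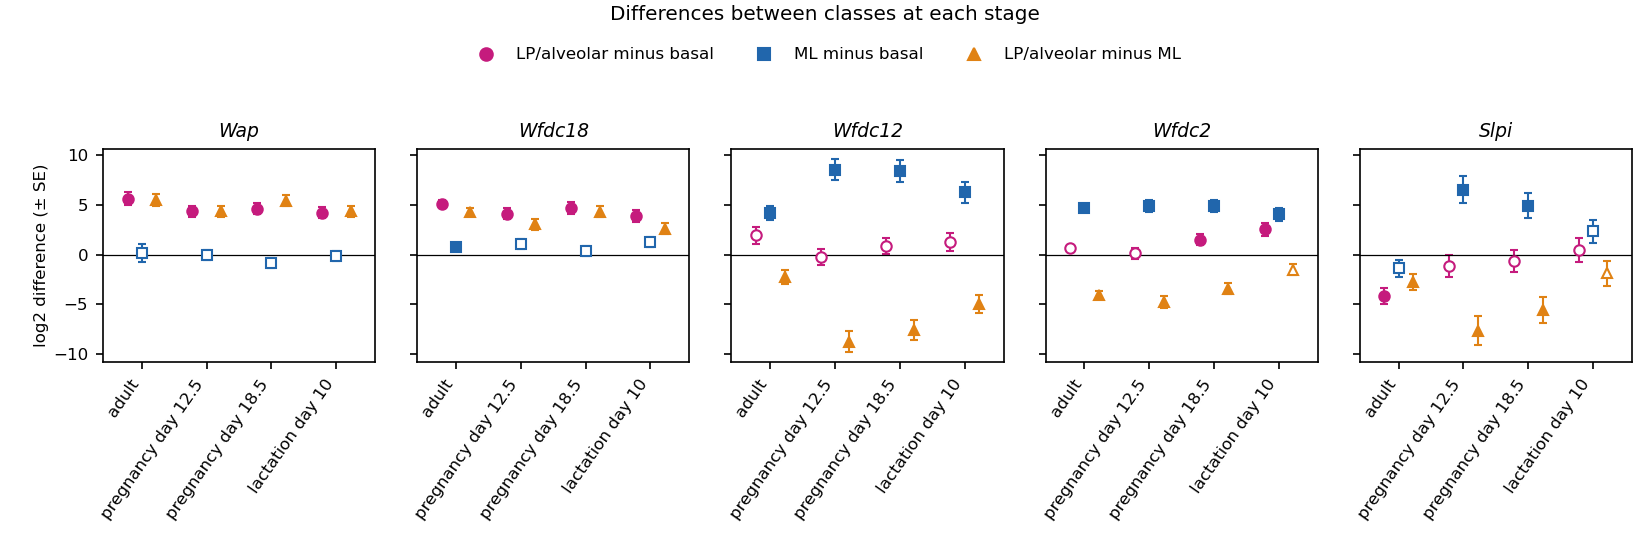
Differences between classes of the same libraries at each stage, as log2 differences with SE bars from the edgeR fit (5 adult libraries, 2 at each other stage). Filled symbols passed an adjusted p of 0.05. The Wap and Wfdc18 differences between LP/alveolar and the other 2 classes lie above 0 at all 4 stages, whereas the ML minus basal difference of Slpi goes from -1.38 in adults to 6.53 at pregnancy day 12.5.

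Wap had the widest range of the 5 genes. In LP/alveolar cells it stood at 61.0, 5.02 and 0.366 CPM in adult FVB/NJ A10, P7 and D12, at 1040 and 1188 CPM at pregnancy day 12.5 (H, G), at 32913 and 39155 CPM at pregnancy day 18.5 (F4, B4) and at 152862 and 171199 CPM at lactation day 10 (F11, D6). The groups did not overlap at any of the 3 steps, and in proportion the 3 adults differed from each other by more than the 2 libraries of any later stage. How many of all genes separate in the same way was not counted, for Wap or for the genes below. Such separation of few libraries is therefore a description only. At lactation Wap was 15.3% (F11) and 17.1% (D6) of all UMIs of the class.

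Successive stages were compared within each class of the 9 FVB/NJ libraries with edgeR, and each stage after the adult except the last serves in 2 of these comparisons. The Wap rises in LP/alveolar cells were 5.72 ± 1.77 from adult to pregnancy day 12.5, 5.58 ± 2.10 to day 18.5 and 4.0 ± 1.95 to lactation, with edgeR adjusted p of 0.0601, 0.185 and 0.316, so none passed. Without the low-count filter they were 5.79, 5.55 and 3.95, and each passed (edgeR adjusted p = 3.06e-05, 0.00278 and 0.0347). Between the adult and pregnancy day 12.5 the edgeR adjusted p was 0.0150 without A10 (a difference of 9.32), 0.0462 without P7 and 0.0423 when milk protein genes and the 5 genes were left out of the library totals. Without scaling beyond library totals the difference was 5.62 (edgeR adjusted p = 0.0331). The remaining alternatives left this difference uncalled, and over all 15 it ran from 5.13 to 9.32. In that comparison 12.7% of 13783 genes were called. In basal cells Wap was called higher at pregnancy day 12.5 by 7.50 ± 1.31 (edgeR adjusted p = 0.030), from 0.801, 0 and 0 CPM in the 3 adults to 75.9 and 62.5 CPM. In ML cells it was called higher by 7.08 ± 1.33 (edgeR adjusted p = 0.00944), from 1.18, 0 and 0 CPM to 90.1 and 72.8 CPM. Both differences depend on the prior count of the fit, since 2 adult libraries had 0 Wap UMIs in those classes. As a percentage of the LP/alveolar level of the same library, Wap stood at 7.30% (H) and 5.26% (G) in basal and 8.67% and 6.12% in ML cells, and the 7 milk protein genes together at 9.16% and 6.08% in basal and 18.5% and 11.7% in ML cells. The part of free RNA in these basal and ML values was not tested. The basal call was lost without H, G, F4, B4 or D12 (edgeR adjusted p 0.0596 to 0.227) and the ML call without H (0.0667) or G (0.0638).

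The share of LP/alveolar cells with at least 1 Wap UMI was 12.5% in A10, 0.449% in P7 and 0.169% in D12, and 73.8% (H) and 71.8% (G) at pregnancy day 12.5. After each cell was thinned to 1000 UMIs, it was 3.77%, 0.301% and 0 in the adults, 36.8% and 37.1% at pregnancy day 12.5, 99.2% (F4) and 98.1% (B4) at day 18.5, and 100% in both lactation libraries. The tenth of LP/alveolar cells with the most Wap held 93.2% of its UMIs in A10, 58.5% and 60.4% at pregnancy day 12.5, 30.7% and 35.1% at day 18.5, and 24.0% (F11) and 22.1% (D6) at lactation. The share of basal cells with a Wap UMI was 18.4% and 16.5% at pregnancy day 12.5 (6.15% and 5.15% thinned), with median depths of 3199.5 and 3302 UMIs against 7041 and 7283 in LP/alveolar cells. At day 18.5 it was 99% and 97.4% (93.3% and 77.7% thinned) and at lactation 100% (100% and 99.8% thinned). From day 18.5 on detection of Wap in a cell thus did little to separate the classes.

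Wap was also detected outside the LP/alveolar class once milk was made, and cells that are not epithelial had it too. At lactation it stood at 86596 (F11) and 23818 (D6) CPM in basal cells, 54172 and 43796 CPM in ML cells, and 69639 and 21255 CPM in stromal and immune cells. Each of these cells had a Wap UMI. As a percentage of the LP/alveolar level of the same library, basal Wap was 56.6% and stromal and immune Wap 45.6% in F11, 13.9% and 12.4% in D6, 10.8% and 11.4% in F4, and 7.38% and 14.7% in B4. The 7 milk protein genes (caseins, Lalba and Glycam1) together stood in basal cells at 50.5% (F11), 16.2% (D6), 11.7% (F4) and 6.07% (B4) of their LP/alveolar level. In F11 the basal and the stromal and immune percentages were both above those of D6, whereas from F4 to B4 the first was lower and the second higher. The stromal and immune class had 27 cells in F4 and 22 in B4. The part of free RNA in the basal and ML values was not tested.

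The ratio of Wfdc18 to Wap within a library gave a further comparison of the classes. In F11 there were 7.79 Wfdc18 UMIs per 100 Wap UMIs in LP/alveolar, 7.77 in basal and 7.36 in stromal and immune cells, but 15.8 in ML cells. In D6 the values were 10.4, 14.8, 11.7 and 46.1. In F4 they were 47.7, 50.4, 35.2 and 91.0, and in B4 58.9, 48.7, 92.7 and 151, where the stromal and immune values come from 27 and 22 cells. At pregnancy day 12.5 the LP/alveolar, basal and ML ratios were 1791, 2279 and 5323 (H) and 1600, 1805 and 3364 (G), and those libraries had under 20 stromal and immune cells. The ML ratios of H and G rest on 103 and 102 Wap UMIs. That of D6 rests on 163 cells, and the tenth of them with the most Wfdc18 held nearly all of its UMIs. The ML ratio was the highest of the classes in all 6 libraries and also post-involution (1418 against 586 in LP/alveolar and 518 in basal cells).

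**Figure D3:**
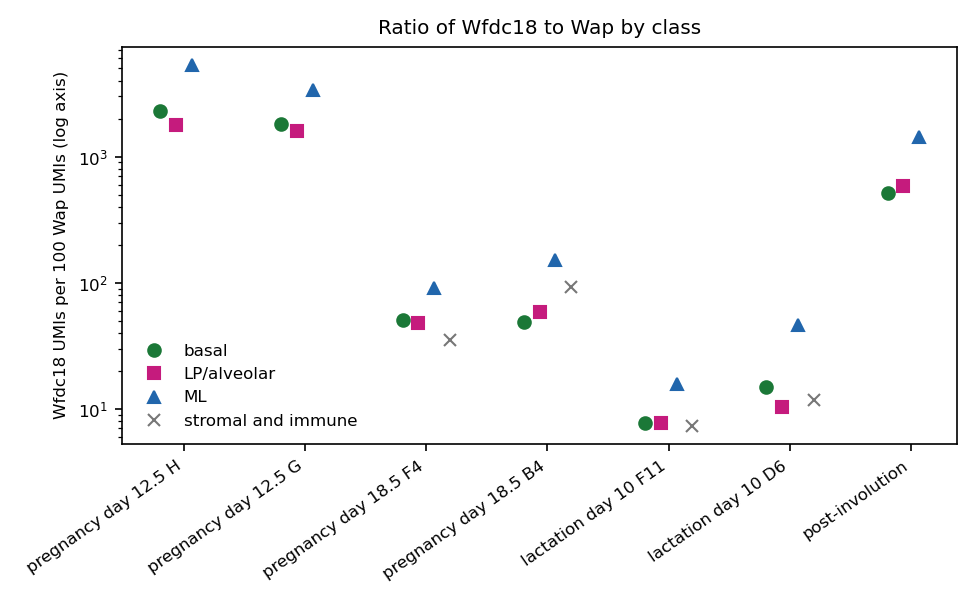
Wfdc18 UMIs per 100 Wap UMIs (log axis) in each class of the pregnancy, lactation and post-involution libraries, 1 symbol per summed class, with no error since each is a single ratio. Basal cells lie near LP/alveolar cells in each library, and ML cells lie above both, at 15.8 against 7.79 in F11 and 46.1 against 10.4 in D6. The ML class of D6 has 163 cells, and few of them hold nearly all of its Wfdc18 UMIs.

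Wfdc18 was already abundant in the virgin gland and changed less than Wap. Its LP/alveolar level was 4606 (A10), 451 (P7) and 7126 (D12) CPM in adults, 18623 and 19008 CPM at pregnancy day 12.5, 15699 and 23075 CPM at day 18.5, and 11911 and 17811 CPM at lactation day 10. All pregnancy libraries lay above all 3 adults, while the pregnancy and lactation ranges overlapped, and the adult SWISS library (17508 CPM) lay within the pregnancy range. The differences were 2.48 ± 1.02, 0.62 ± 1.12 and 1.44 ± 1.14 at the 3 steps (edgeR adjusted p = 0.136, 0.827 and 0.575). Without P7, the adult with the lowest level, the first was 1.93 (edgeR adjusted p = 0.0153), and by DESeq2 it was 2.42 (0.0213). Without the low-count filter this first difference was 2.57 (edgeR adjusted p = 0.0212). The remaining alternatives left it uncalled, and over all 16 it ran from 1.93 to 2.98. The sign of the last depended on the scaling. Milk protein genes took 65.1% (F11) and 61.6% (D6) of the LP/alveolar UMIs at lactation, against 33.1% (F4) and 33.6% (B4) at pregnancy day 18.5. As CPM of the UMIs outside the milk protein genes and the 5 genes, Wfdc18 went from 25292 and 38326 at pregnancy day 18.5 to 64709 and 91373 at lactation, and without TMM scaling the fitted difference was -0.38. Before any alternative was applied, edgeR called no Wfdc18 difference between stages in any class. DESeq2 called it in LP/alveolar and in ML cells between the adult and pregnancy day 12.5. In ML cells of D6, the class with 163 cells, Wfdc18 stood at 20175 CPM, which was 113% of the LP/alveolar level of that library, and the tenth of those cells with the most Wfdc18 held nearly all of its UMIs.

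**Figure D4:**
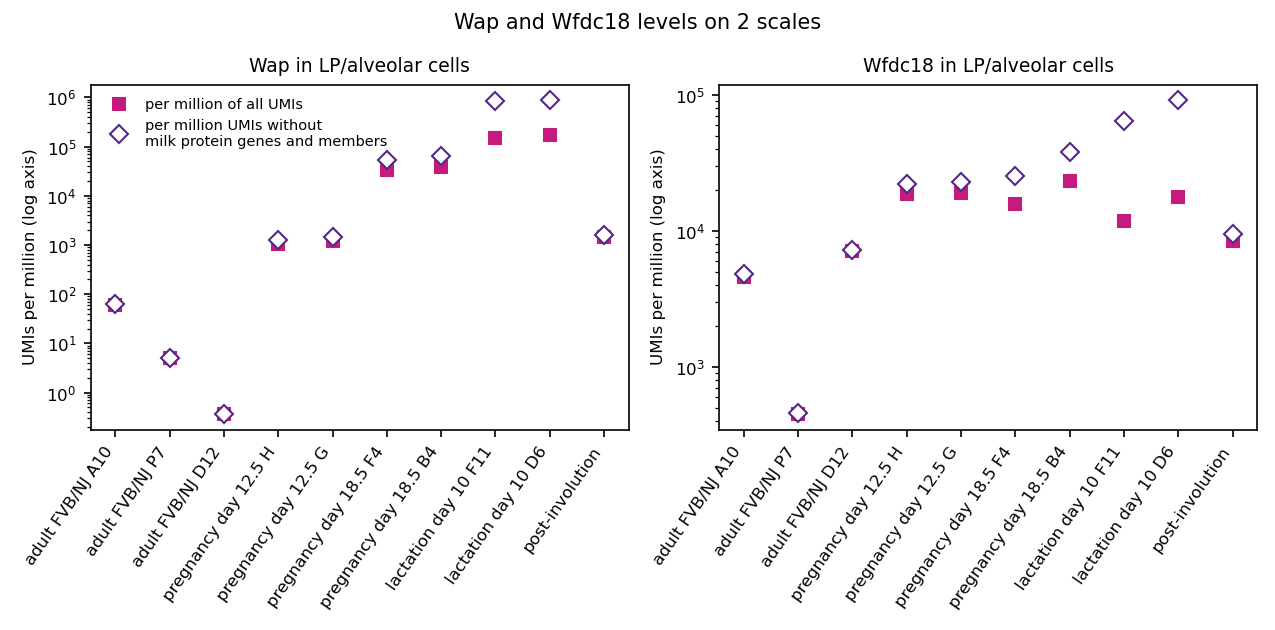
Wap and Wfdc18 in LP/alveolar cells of the FVB/NJ libraries, as CPM of all UMIs (squares) and of the UMIs outside the milk protein genes and the 5 genes (diamonds), on log axes with 1 symbol per library. The 2 scales nearly coincide in adults, differ from pregnancy on and lie farthest apart at lactation, where Wfdc18 stands at 11911 and 17811 on the first and 64709 and 91373 on the second.

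Wfdc12, rare in the virgin gland, was the member with the largest called rise. In ML cells it stood at 33.1 (A10), 17.1 (P7) and 4.64 (D12) CPM in adults, 7379 (H) and 6677 (G) CPM at pregnancy day 12.5, 3289 (F4) and 5132 (B4) CPM at day 18.5 and 2304 (F11) and 1161 (D6) CPM at lactation day 10. Every pregnancy and lactation library lay above every adult, and both lactation libraries lay below all 4 pregnancy libraries. From adult to pregnancy day 12.5 it rose by 8.46 ± 1.0 (log2 ± SE, edgeR adjusted p = 0.000672, at most 0.00687 under any of 16 alternatives). In that comparison 7.38% of 9482 genes were called. The later steps were -0.88 ± 0.87 and -0.59 ± 0.87 and did not pass (edgeR adjusted p = 0.926 and 0.973). Its LP/alveolar level stayed between 0.456 and 18.8 CPM in the 9 libraries. In basal cells it was called higher by 4.47 ± 0.62 at pregnancy day 12.5 (edgeR adjusted p = 0.0159, with 1.16% of 13555 genes called), from 0.754, 0 and 1.05 CPM to 16 and 16.5 CPM, and this call was lost without H (0.173) or G (0.121). The LP/alveolar levels in H and G were 10.3 and 12.1 CPM, and their difference from basal cells was -0.20 ± 0.80 (edgeR adjusted p = 0.864). The part of RNA from ML cells in the basal and LP/alveolar values was not tested.

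A Wfdc12 UMI was found in 2.08% (A10), 0.604% (P7) and 0.945% (D12) of adult ML cells and in 49.5% (H), 52.2% (G), 58.0% (F4) and 51.1% (B4) of those in pregnancy, 49.0% (F11) and 38.7% (D6) at lactation. Thinned to 1000 UMIs a cell, these shares were 0.880%, 0.309% and 0.119%, then 43.6%, 41.7%, 50.3% and 44.3%, then 38.6% and 30.7%. In LP/alveolar cells, with a higher median depth (7041 against 4588 UMIs in H), the thinned share was 1.25% in H and 1.12% in G. Wfdc12 overlaps an antisense gene, A730032A03Rik, which had 27 UMIs in the 3 classes of the 17 mammary libraries together. Use of strand in counting was not given in the sources used here.

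Wfdc2 marked ML cells of the virgin gland and was called lower in ML and in LP/alveolar cells at pregnancy day 12.5 than in adults. Its ML level was 1507 (A10), 1102 (P7) and 2618 (D12) CPM in adult FVB/NJ mice, 271 (H) and 247 (G) CPM at pregnancy day 12.5, 230 (F4) and 189 (B4) CPM at day 18.5 and 373 (F11) and 109 (D6) CPM at lactation. All 6 later libraries lay below all adults. Wfdc2 fell by 2.84 ± 0.70 (log2 ± SE) to pregnancy day 12.5 (edgeR adjusted p = 0.0321). That call was lost without H, G, F4, B4 or D12 (edgeR adjusted p 0.0552 to 0.344). Wfdc2 in LP/alveolar cells fell by 4.11 ± 0.72 (edgeR adjusted p = 0.00775, but 0.104 without H and 0.0981 without G), from 54.9, 76.2 and 297 CPM to 6.32 and 6.47 CPM. ML cells, where Wfdc2 is high, were 31.8% (A10), 31.2% (P7) and 30.4% (D12) of the cells of the adult libraries and 1.91% (H) and 2.03% (G) at pregnancy day 12.5. The median count of ML marker genes was above 0 in LP/alveolar cells of A10 and D12 and in basal cells of D12, and 0 in both classes of P7, H and G. The part of ML cells and their RNA in the LP/alveolar fall was not tested, nor was that of the change in LP and alveolar markers of the class. In basal cells the difference was -3.84 ± 0.91 (edgeR adjusted p = 0.0708). The difference in ML cells did not change sign under any of 16 alternatives, with a range from -3.15 to -2.44. The share of ML cells with a Wfdc2 UMI, thinned to 1000 UMIs, was 69.0%, 60.6% and 85.5% in adults and 22.3% and 18.1% at pregnancy day 12.5, and unthinned it was 97.0%, 87.7% and 99.9% against 61.3% and 62.9%. In basal cells of H and G, with median depths of 3199.5 and 3302 UMIs against 4588 and 4448 in ML cells, the thinned share was 0.771% and 0.794%. In adult basal cells the unthinned share was 15.9% (A10), 3.62% (P7) and 67.8% (D12), and the thinned share 4.51%, 1.58% and 23.0%. Post-involution, ML cells held 1155 CPM of Wfdc2, within the range of the adults.

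In FVB/NJ mice Slpi had higher levels in basal cells of the virgin gland than in those of pregnancy. That difference was called by edgeR only under some alternatives, and in pregnancy Slpi was highest in ML cells. Its basal level was 1328 (A10), 3438 (P7) and 1200 (D12) CPM in adults, 153 (H) and 120 (G) CPM at pregnancy day 12.5, 345 (F4) and 179 (B4) CPM at day 18.5, 819 (F11) and 158 (D6) CPM at lactation and 2288 CPM post-involution. The 6 pregnancy and lactation libraries lay below the 3 adults, but the basal level of the adult SWISS library, 58.1 CPM, lay below all 6. The fitted difference to pregnancy day 12.5 was -3.68 ± 0.92 (edgeR adjusted p = 0.0853), which was not called, although DESeq2 called it (9.33e-05). It was also called by edgeR with at least 1000 genes per cell (adjusted p = 0.0475), without scaling (0.0432) and without the low-count filter (5.14e-06). Other alternatives left it uncalled, and over all 16 it ran from -3.93 to -3.17. In ML cells Slpi was at 1674 (A10), 684 (P7) and 102 (D12) CPM in adults, 15465 (H) and 13870 (G) CPM at pregnancy day 12.5, 10326 (F4) and 7653 (B4) CPM at day 18.5, 5860 (F11) and 523 (D6) CPM at lactation and 1349 CPM post-involution. The 4 pregnancy libraries lay above all adults, and lactation D6 lay among the adults. The rise to pregnancy day 12.5 was 4.02 ± 1.18 (edgeR adjusted p = 0.0650), which was not called, and DESeq2 gave 4.03 (0.0222). Over 16 alternatives the rise ran from 3.48 to 5.32, and not all of them called it. Without A10 the difference was 5.32 (edgeR adjusted p = 0.0292).

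In pregnancy nearly every ML cell had Slpi. A UMI was found in 96.7% (H), 98.5% (G), 97.3% (F4) and 97.2% (B4) of ML cells, or 94.8%, 96.7%, 91.5% and 84.7% after thinning to 1000 UMIs. In adult ML cells the thinned share was 37.0% (A10), 14.5% (P7) and 8.90% (D12), and unthinned 63.0%, 22.6% and 51.4%. The LP/alveolar share in H and G was 4.49% and 3.75% thinned, 26.4% and 24.0% unthinned, at a median depth of 7041 and 7283 UMIs against 4588 and 4448 in ML cells. Slpi in LP/alveolar cells was called higher at lactation than at pregnancy day 18.5, by 1.69 ± 0.40 (edgeR adjusted p = 0.0443, with 4.63% of genes called), although its CPM were 112 (F4) and 50.9 (B4) before and 80.4 (F11) and 63.1 (D6) after. Without scaling beyond library totals the difference was -0.18, and the call was also lost with milk genes left out of the totals (0.0821) and without any one of H, G, F4, B4, F11 or D6 (edgeR adjusted p 0.0937 to 0.297).

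**Figure D5:**
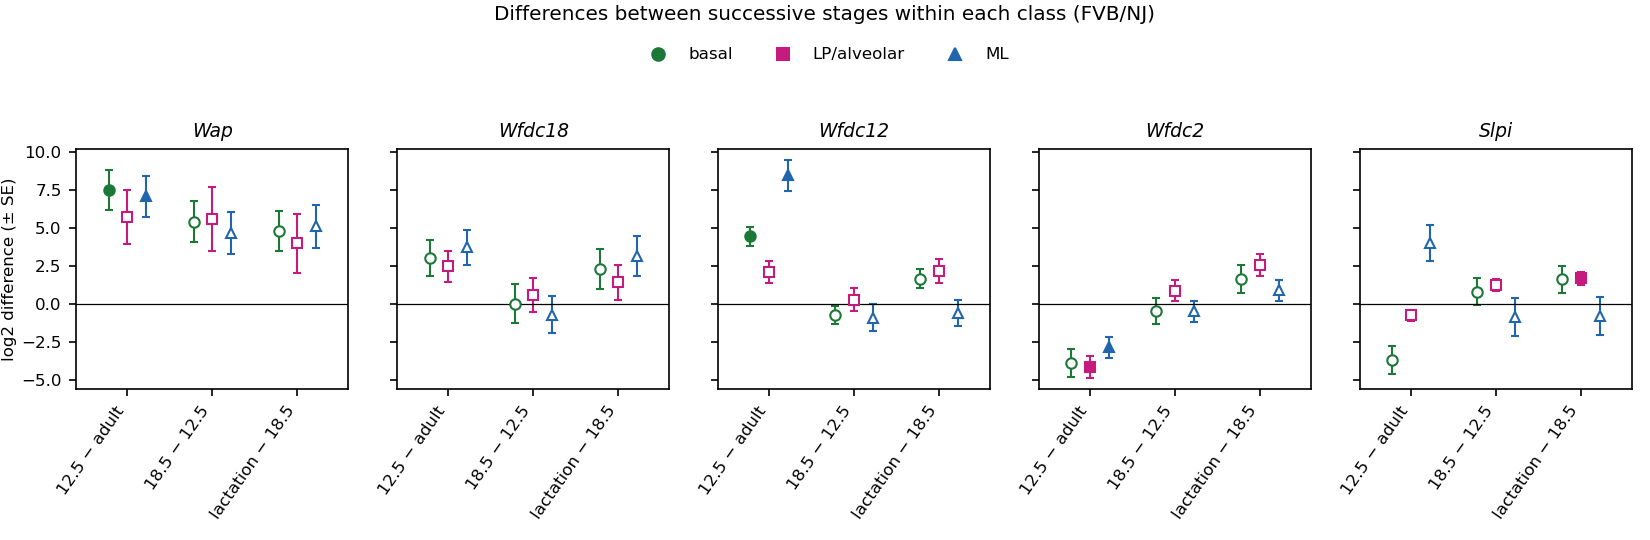
Differences between successive stages within each class of the 9 FVB/NJ libraries, as log2 differences with SE bars from the edgeR fits (3 adult libraries, 2 at each other stage). Filled symbols passed an adjusted p of 0.05. Between the adult and pregnancy day 12.5 the filled symbols are Wap and Wfdc12 in basal and ML cells and Wfdc2 in LP/alveolar and ML cells, and the only later one is Slpi in LP/alveolar cells at lactation.

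Between the adult and pregnancy day 12.5, edgeR called 2 of the 5 genes in basal cells (1.16% of all genes), 1 of 5 in LP/alveolar cells (12.7%) and 3 of 5 in ML cells (7.38%). DESeq2 called 4 of 5 in basal cells (5.25% of all genes), 3 of the 4 with an adjusted p in LP/alveolar cells (18.4%) and 5 of 5 in ML cells (10.5%). For Wap in LP/alveolar cells it gave no adjusted p at any of the 3 steps. Between pregnancy days 12.5 and 18.5 edgeR called no member in any class, where 0, 2.42% and 0.0211% of all genes were called in basal, LP/alveolar and ML cells and 1, 2 and 1 members had an unadjusted p under 0.05. DESeq2 called Wap in basal cells (1.42% of all genes), Slpi in LP/alveolar cells (8.09%) and none in ML cells (0.612%). Between day 18.5 and lactation edgeR called 1 of 5 in LP/alveolar cells (4.63% of all genes) and none in basal (2.35%) or ML cells (0.0316%), where 2 and 2 members had an unadjusted p under 0.05. DESeq2 called Wfdc2 and Slpi in LP/alveolar cells (8.11% of all genes), Wap in basal cells (4.86%) and none in ML cells (0.929%).

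Whether the classes changed differently was tested as the difference of class effects between stages, and 4 of 45 such differences were called, all between the adult and pregnancy day 12.5. The ML minus basal difference grew by 4.36 ± 1.11 for Wfdc12 (edgeR adjusted p = 0.0124) and by 7.91 ± 1.58 for Slpi (0.00239), where 12.9% of all genes were called. The LP/alveolar minus ML difference became more negative, by -6.49 ± 1.13 for Wfdc12 (edgeR adjusted p = 0.000661) and -4.88 ± 1.42 for Slpi (0.0217), where 17.9% of all genes were called. For Wap, Wfdc18 and Wfdc2 no such difference was called, so their changes were not shown to differ between classes. Without H or G, 1 of the 4 was still called (Wfdc12, LP/alveolar minus ML), and without the library block none was called by edgeR, with adjusted p from 0.0624 to 0.358. In the other comparisons between the adult and pregnancy day 12.5, 8.57% of genes were called for LP/alveolar minus basal. Between pregnancy days 12.5 and 18.5 the 3 shares were 2.27%, 0.200% and 1.43%, and between day 18.5 and lactation 3.63%, 0.547% and 1.06%.

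The other stages had 1 library each and no replicate check, and intervals there are exact Poisson 95% intervals that cover counting error only. Wap had 0 UMIs in all 3 classes at E18.5, postnatal day 5 and pre-puberty. A count of 0 (3 counts as the limit) allows LP/alveolar cells at most 0.472 CPM at E18.5, 0.802 CPM at postnatal day 5 and 0.507 CPM at pre-puberty. It was at 0.307 CPM in LP/alveolar cells of TEB (2 UMIs) and 2.73 CPM in those of the ducts (19 UMIs). Post-involution it stood at 1426 CPM in LP/alveolar cells (1407 to 1444), where 38.3% of cells had a Wap UMI and the tenth with the most held 93.4% of its UMIs. The 3 adult FVB/NJ libraries ran from 0.366 to 61.0 CPM in the same class.

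Among these libraries Wfdc18 was highest in LP/alveolar cells from E18.5 on, although the classes of E18.5 were the least distinct. It was at 672 CPM in that class at E18.5, against 135 CPM in basal and 101 CPM in ML cells, and at 3157, 5693, 6800 and 5982 CPM at postnatal day 5, pre-puberty, TEB and duct. In basal cells the same libraries gave 9.76, 57, 77.8 and 50.4 CPM. LP/alveolar cells stood apart in all 8 single libraries, the adult C57BL/6 (4540 CPM) and SWISS (17508 CPM) included, where standing apart means that the interval of the highest class overlapped no other. Post-involution the level was 8361 CPM.

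Wfdc2 set ML cells apart from postnatal day 5 on. At E18.5 LP/alveolar cells stood apart instead, at 98.0 CPM against 77.7 in ML and 62.9 in basal cells. There the classes were least distinct and 55.9% of the cells had none, so these are levels of gated cells and not of settled lineages. At postnatal day 5 it was at 1120 CPM in ML, 314 in LP/alveolar and 36.8 in basal cells. The ML level was 1234 CPM at pre-puberty and 1718 and 1717 CPM in TEB and duct, 3492 CPM in the adult C57BL/6 and 2561 CPM in the adult SWISS library. Wfdc12 stayed at or below 12.2 CPM in every class before the adult, and it was at 0.521 CPM in ML cells of the adult C57BL/6 and 138 CPM in those of the adult SWISS library. Wfdc12 was highest in LP/alveolar cells, standing apart there, at pre-puberty (12.2 CPM) and in the adult C57BL/6 (4.13 CPM). ML cells stood apart in the adult SWISS and post-involution libraries, and no class did in the other 4. Post-involution its ML level was 1097 CPM, with a UMI in 34.1% of ML cells (17.9% thinned), against 4.64 to 33.1 CPM in the 3 adult FVB/NJ libraries.

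Slpi in basal cells was at 18.3 and 23.3 CPM at E18.5 and postnatal day 5, 1324 CPM at pre-puberty, 3.48 CPM in TEB and 454 CPM in ducts, 869 CPM in the adult C57BL/6 and 58.1 CPM in the adult SWISS library. Its ML level was 14.6, 24.0 and 19.0 CPM at the first 3 stages, 339 CPM in TEB and 65.0 CPM in ducts, 13.6 CPM in the adult C57BL/6 and 386 CPM in the adult SWISS library. Basal cells stood apart in 4 of the 8 libraries (pre-puberty, duct, adult C57BL/6 and post-involution) ML cells in 2 (TEB and adult SWISS) and LP/alveolar cells in 1 (postnatal day 5, at 39.6 CPM). The LP/alveolar level of the 8 libraries ran from 6.76 CPM in the ducts to 97.4 CPM post-involution. A Slpi UMI was found in 44.2% of duct basal cells and 8.70% of TEB basal cells, although the TEB cells were deeper (median 26173 against 11957 UMIs), and the thinned shares were 23.2% and 0.425%.

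Of 20 other genes listed, which are WAP-domain genes apart from Spint4, 19 were in the feature list, and 2 of these, Wfdc9 and Spint4, had 0 UMIs in the 3 classes. Wfdc3 and Wfdc17 reached 10 CPM in a class, and the others did not. Wfdc17 stood at 1.63, 0 and 2.38 CPM in LP/alveolar cells of the adults A10, P7 and D12, 2.84 and 2.26 CPM at pregnancy day 12.5, 38.5 and 30.3 CPM at day 18.5 and 746 and 800 CPM at lactation. It was called higher in LP/alveolar cells at pregnancy day 18.5 by 4.30 ± 0.75 (edgeR adjusted p = 0.0223) and again at lactation by 6.34 ± 0.82 (0.00294), and at lactation also in ML cells by 9.37 ± 1.09 (0.0248) and in basal cells by 7.49 ± 0.91 (0.00356). The basal level was 422 CPM in F11 and 289 CPM in D6. Immune cells numbered 1 in each day 18.5 library and 42 (F11) and 384 (D6) at lactation, and their part and that of free RNA in the Wfdc17 values were not tested. Its highest level was 2566 CPM in ML cells of lactation D6. Wfdc3 was highest in LP/alveolar cells of lactation F11, at 299.6 CPM, and it was called higher in that class at lactation by 3.35 ± 0.81 (edgeR adjusted p = 0.0454).

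Among genes of the prolactin pathway (9, of which the receptor gene Prlr and the ETS factor gene Elf5 also served in the cell gate), 2 were called higher and 1 lower in LP/alveolar cells between the adult and pregnancy day 12.5, where 12.7% of all genes were called. The largest difference was Prlr, at -2.05 ± 0.31 (edgeR adjusted p = 0.00482). In ML cells 2 were called higher, the largest being the feedback inhibitor Socs2 at 3.09 ± 0.41 (0.00133), beside 7.38% of all genes. In basal cells 1 was called lower, Prlr at -4.25 ± 0.78 (edgeR adjusted p = 0.0319), beside 1.16% of all genes. Prlr is an ML marker of the gate, and the part of the gate and of the share of ML cells in its differences was not tested. At lactation 1 was called, Socs2 in LP/alveolar cells at 2.32 ± 0.40 (edgeR adjusted p = 0.0111), beside 4.63% of all genes. The median difference of the 9 genes from adult to pregnancy day 12.5 was 0.52 in LP/alveolar, 0.77 in ML and 0.13 in basal cells, against 0.03, -0.07 and -0.08 over all genes. At lactation it was -0.18, -0.16 and 0.30, against -0.03, 0.01 and -0.02. All 7 milk protein genes were called higher in LP/alveolar than in basal cells at each of the 4 stages, with medians of 6.02, 4.17, 4.72 and 4.22. Between stages only 1 milk gene was called in LP/alveolar cells at pregnancy day 12.5, Glycam1 at 17.62 ± 1.33 (edgeR adjusted p = 0.000172), and 1 at lactation, Csn1s2b at 10.05 ± 1.65 (0.00884).

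The genes most like each member were ranked by Pearson correlation of log2(CPM + 1) over the 30 summed classes of the 10 FVB/NJ libraries, among 10171 genes. The classes share libraries, depth and milk load, so the correlations are descriptions. Wap was nearest to Olah (0.962), a thioesterase that ends medium-chain fatty acid synthesis, then to Cd36, Lpl, Thrsp and Pigr, which serve fatty acid uptake, lipid synthesis and transport of IgA. Wfdc18 was nearest to Ss18l2 (0.848), Scd1, Csn3, B4galt1 and Chrdl2. Wfdc12 was nearest to Tmprss6 (0.964), Neurl1a, Stk32a, Gm10032 and Wnk4, and Wfdc2 to Clip4 (0.947), Pof1b, Sec14l4, Gipc2 and the EGF receptor ligand gene Areg. Areg is also an ML marker of the gate that set these classes. Slpi was nearest to Socs2 (0.871), Acpp, Slc6a9, Map1b and Emb. Between members the correlation was 0.758 for Wap with Wfdc18 and 0.682 for Wfdc12 with Slpi, while Wap with Wfdc2 gave -0.547.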

How the data were processed

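Single-cell 3′ libraries were processed by the authors with Cell Ranger (3.0.2 in 16 file headers and 3.1.0 in 2, against mm10 per the submitters' processing notes), and the deposited values are UMI counts per gene and barcode, with barcodes under 500 reads left out before deposit. Cells were kept within the study's own limits on genes, UMIs and mitochondrial share, with more than 500 genes (132599 of 149371 barcodes). Cells were gated into basal, LP/alveolar and ML by marker lists at a posterior above 0.9, and the scoring rule was set after the data were seen. No doublet caller was run beyond the upper limits of the study. UMI counts were summed per library and class (at least 20 cells) and tested with edgeR 4.0.16 in R 4.3.3 (TMM, filterByExpr, quasi-likelihood F-test, Benjamini-Hochberg over all genes, 0.05). SE is the log2 difference over the root of F. Stages were compared in 9 FVB/NJ libraries per class, and classes in 11 libraries with the library as a block. DESeq2 1.42.0, other scalings, filters, gates and each library left out were alternatives. Steps were tested on simulated data.

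The members and all lists were chosen with earlier results of these data known, and the motifs were chosen after the sequences were seen. The 5 members are named throughout, other family genes from 10 CPM in a class, the milk and prolactin gene with the largest change in each comparison, and the 5 genes most like each member. Shares of cells were also computed after thinning to 1000 UMIs. Intervals and count limits cover counting error only. Promoter sequences are from RefSeq (GRCm38.p6), with entries for 5 of 5 members.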

Additional observations from a re-analysis of the deposited data

Results flagged for a closer look

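Among the 5 adult libraries, 1 library stood far from the other 4 in 5 of 15 combinations of gene and class, where chance gives about 1 in 20 for independent groups of like samples. These groups are neither, since the classes share libraries and the 5 adults are of 3 strains. Wap in adult FVB/NJ A10 stood apart in all 3 classes, at 61.0 CPM in LP/alveolar, 1.18 CPM in ML and 0.801 CPM in basal cells. Wfdc12 in the adult SWISS library stood apart at 138 CPM in ML and 4.52 CPM in basal cells.

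The change from adult to pregnancy day 12.5 differed between classes for 2 genes by edgeR's test of the difference. For Wfdc12 the ML minus basal difference grew by 4.36 and the LP/alveolar minus ML difference changed by -6.49 on the log2 scale. For Slpi the values were 7.91 and -4.88.

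The E18.5 skin library enters no comparison. Its cells outside the fibroblast, endothelial and epidermal gates numbered 324, of which 183 were left without a class. In these 324 cells Wfdc18 stood at 572 CPM, Wfdc2 at 252 CPM, Slpi at 169 CPM and Wfdc12 at 9.33 CPM. In the 24 skin cells that fell in the LP/alveolar gate the levels were 3757, 1187, 826 and 39.1 CPM.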

How the results depend on the processing

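Of 150 differences between stages or classes, 120 kept their sign under each alternative run, and of the 51 called, 49 kept their sign and 23 also their call; the cause of the changes was not tested. The calls between stages in basal cells (2 of 15) became 6 by DESeq2, 4 without scaling, 10 without the low-count filter, 4 with at least 1000 genes per cell, and 0 to 5 with 1 library left out. In LP/alveolar cells 2 calls became 6 by DESeq2, 9 without the filter and 0 (without H or G) to 6 (without P7). In ML cells 3 became 5 by DESeq2, 7 without the filter and 1 (without H or G) to 7 (without P7). The 40 calls between classes became 26 without the library block. The 4 differences of class effects became 9 without scaling, 0 without the block, and 1 to 4 with 1 library left out. Of the 25 genes nearest to the members, 13 were the same with log2(CPM + 10), 13 without milk genes in the totals and 10 by Spearman correlation. Without scaling the sign turned for 15 of the 150 differences, among those called or named for 3 lactation values, Wfdc18 in LP/alveolar cells between stages (-0.38), Slpi likewise (-0.18) and Wfdc2 between LP/alveolar and basal cells (-0.031). Among the same differences it turned between pregnancy day 18.5 and lactation without F11 for Slpi in basal cells (-0.71, and 2.47 without D6) and Wfdc2 in ML cells (-0.34, and 1.58 without D6), and without D6 for Slpi in ML cells (0.14, and -3.50 without F11). Leaving out scaling moved the median of all LP/alveolar genes by -0.30, -0.56 and -1.84 at the 3 steps, and the share of called genes that were higher from 47.6% to 27.7%, 64.4% to 15.4% and 63.0% to 1.98%. No paired analysis was possible because the labels give no replicate numbers that the stages share.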
